A study of Mus musculus with 34 samples.

Results

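The 36 genes described here code for aminoacyl-tRNA synthetases. They were chosen by symbol: 20 names of the cytosolic enzymes and 16 names, all ending in 2, of the mitochondrial enzymes, out of 53465 genes listed in the tables of batches 3 to 5. All 36 were listed in 4 of the 5 tables and passed the filter on low counts there. The batch 2 table lists 35 of them, without Cars2, and all 35 passed.

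The series measured mRNA held by ribosomes of parvalbumin (PV) or somatostatin (SST) interneurons in cortex and hippocampus of mice labelled C57/BL6 at postnatal day 60. All mice carried RiboTag, a Cre-dependent allele that adds an HA tag to the ribosomal protein Rpl22, so ribosomes of cells with Cre can be pulled down with an HA antibody. PV:Cre/Ribotag mice received saline or pentylenetetrazol (PTZ, a GABA receptor antagonist that causes widespread excitation) in batch 1, or saline in batch 2. In batch 3 they stayed in the home cage or went through contextual fear conditioning with foot shocks (CFC). Sst:Cre/Ribotag mice received saline or PTZ in batch 2 and home cage or CFC in batch 4. PV:Cre/Nr4a1-f/f/Ribotag mice (batch 3) and Sst:Cre/Nr4a1-f/f/Ribotag mice (batch 5) carried floxed alleles of Nr4a1, a nuclear receptor gene switched on by neuronal activity, and stayed in the home cage. Cre from the Pvalb or Sst driver both tags the ribosomes and is meant to remove the floxed gene, so the tagged pool includes every cell that has ever had Cre. The 34 libraries fall into 11 groups: 4 PV PTZ and 3 PV saline in batch 1; 2 PV saline, 3 SST PTZ and 4 SST saline in batch 2; and 3 in each group of batches 3 to 5. The labels do not say whether replicates were separate mice or pools, and the spread that the p-values rest on may be partly technical.

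Each synthetase joins an amino acid to the tRNAs that carry it, which is the step where the genetic code is read into protein. The cytosolic enzymes serve cytoplasmic ribosomes, and a separate nuclear-encoded set is imported into mitochondria to serve the ribosomes there. Kars and Gars code for both forms of the lysine and the glycine enzyme. The catalytic domains fall into class I and class II by fold, and Eprs joins the glutamate and the proline enzyme in a single protein. Many cytosolic synthetase genes are targets of ATF4, a transcription factor made when amino acids run short or the integrated stress response is active. ATF4 binds, as a dimer with a C/EBP protein, composite sites written TGATGNAA, of which TGATGCAA is the best known form.

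Because 12 cytosolic genes are described below as an ATF4-responsive list from background knowledge, the promoters that hold such a word are shown. The list was chosen with earlier results of these data known. RefSeq promoter windows of GRCm38.p6, from 250 bases before to 50 bases after the transcription start, were matched for 27 of the 36 genes. Cars, Hars, Lars, Nars, Rars, Vars, Wars, Hars2 and Pars2 were not matched. TGATGNAA, searched on both strands, was in 5 of 13 cytosolic promoters (38.5%), in 0 of 15 mitochondrial promoters (from 14 genes) and in 3.97% of 32851 promoters of all genes. TGATGCAA, a subset of those words, was in 4 of 13 cytosolic promoters (30.8%) and in 0.895% of all promoters. All 5 promoters with a word belong to the 8 matched genes of the ATF4-responsive list, and none to the 5 matched cytosolic genes outside it. The sequences run 5′ to 3′ on the gene's strand from 150 bases before to 30 bases after the start, 180 bases each. Capitals mark the word, which is printed as its reverse complement (TTGCATCA or TTTCATCA) where it lies on the opposite strand.
Yars, chr4:129189753-129189932, plus strand: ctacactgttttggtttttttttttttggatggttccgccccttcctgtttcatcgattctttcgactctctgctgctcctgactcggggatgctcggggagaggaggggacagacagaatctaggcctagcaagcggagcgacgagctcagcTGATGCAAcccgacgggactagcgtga
Gars, chr6:55037851-55038030, plus strand: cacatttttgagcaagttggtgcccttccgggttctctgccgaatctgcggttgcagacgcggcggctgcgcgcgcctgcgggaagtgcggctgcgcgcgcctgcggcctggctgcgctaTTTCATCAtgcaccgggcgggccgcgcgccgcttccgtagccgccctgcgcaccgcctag
Aars, chr8:111033692-111033871, plus strand: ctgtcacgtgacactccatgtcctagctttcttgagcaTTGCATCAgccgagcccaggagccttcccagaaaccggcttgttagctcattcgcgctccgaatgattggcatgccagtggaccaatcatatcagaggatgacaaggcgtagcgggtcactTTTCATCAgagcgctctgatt
Iars, chr13:49681980-49682159, plus strand: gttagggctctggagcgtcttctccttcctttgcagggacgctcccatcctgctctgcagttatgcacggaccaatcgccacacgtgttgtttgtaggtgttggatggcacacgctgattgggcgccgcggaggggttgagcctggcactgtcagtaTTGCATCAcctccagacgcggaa
Tars, chr15:11399629-11399808, minus strand: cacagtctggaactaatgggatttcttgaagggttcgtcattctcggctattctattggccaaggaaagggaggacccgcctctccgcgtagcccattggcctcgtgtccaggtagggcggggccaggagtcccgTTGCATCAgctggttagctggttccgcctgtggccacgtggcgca
Counted from the transcription start, the word begins at position 4 in Yars (tyrosine), -30 in Gars (glycine), 8 in Iars (isoleucine) and -15 in Tars (threonine). Aars (alanine) holds 2 words, at positions -112 and 10. A match describes these letters and is no evidence of binding, and no ATF4 binding was measured here.

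Levels are given as CPM, the counts scaled to the size of the library, after trimmed-mean normalisation within each table, and tests are edgeR quasi-likelihood tests with Benjamini-Hochberg adjusted p-values over all genes of the table. A gene is called at an adjusted p under 0.05. In bulk libraries of this kind, fewer cells of a type and less RNA per cell cannot be told apart. Library totals ran from 4933110 to 27282912 counts. The markers of the Cre lines separated in batch 2, where mean Pvalb was 302 CPM in PV saline and 7.85 in SST saline, and mean Sst was 61.2 and 2570 CPM. In batch 1 PV saline, Pvalb was at 20 CPM (15.9 to 22.1) and Sst at 48.5 CPM (38 to 62.3), so the Pvalb level there was far under that of the batch 2 PV libraries, in a table normalised separately. In batch 3 home cage PV libraries, Pvalb was at 169 CPM (155 to 190) and Sst at 268 CPM (125 to 464).

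Nr4a1 itself was at 5.07, 7.43 and 11.7 CPM in the 3 home cage PV libraries and at 6.68, 16.5 and 7.65 CPM in the 3 PV libraries labelled Nr4a1-f/f. It was at 23.5, 15.3 and 13.8 CPM in home cage SST libraries and at 15, 11.4 and 17.7 CPM in SST libraries labelled Nr4a1-f/f. The groups overlapped in both lines, with log2 differences of 0.38 ± 0.35 (SE; adjusted p = 0.592, edgeR) in PV and -0.30 ± 0.22 (adjusted p = 0.511) in SST. The counts cover the whole gene, so transcripts lacking floxed exons would still be counted and the levels do not check the labels. The libraries are therefore named by their label throughout.

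The cytosolic enzymes had the higher median level per transcript length in all 11 groups. Per kilobase of transcript, the median cytosolic level in home cage PV libraries was 33.8 CPM per kb (6.47 to 191 over the 20 genes), and the median mitochondrial level was 6.37 (0.397 to 5060 over 16). In home cage SST libraries the medians were 43.6 and 9.03 CPM per kb, and after saline in batch 2 they were 31.8 and 3.94 in PV and 23.3 and 2.22 in SST. Nars (asparagine) at 191 ± 6.57 (SD, n = 3) and Gars at 181 ± 53.4 CPM per kb led the cytosolic genes in home cage PV libraries, and their spreads overlapped. Sars (serine), Wars (tryptophan) and Hars (histidine) followed at 124 ± 23.6, 124 ± 31.9 and 115 ± 15.7 CPM per kb, also within their spreads. The lowest mitochondrial genes were Vars2 at 2.16, Wars2 at 0.998 and Mars2 at 0.397 CPM per kb.

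Lars2, the mitochondrial leucine enzyme, stood apart in the tables of batches 3 to 5. It was at 10200, 16600 and 32200 CPM in home cage PV libraries of batch 3 (5060 ± 2900 CPM per kb), while the 2 saline PV libraries in the batch 2 table held 12.6 and 54.7 CPM. Its share of all counts in the 3 home cage PV libraries was 1.03%, 1.58% and 2.92%, and that of the ribosomal RNA gene CT010467.1 was 1.39%, 2.45% and 4.60% in the same order. In CFC libraries the 2 shares were 1.09% with 1.49%, 0.916% with 1.14% and 0.714% with 1.09%. In PV libraries labelled Nr4a1-f/f they were 0.622% with 0.771%, 0.837% with 1.20% and 0.835% with 0.999%. In each of these 3 groups the library with the highest share of the one had the highest share of the other, and the part of ribosomal RNA in the Lars2 counts was not tested. In batch 5 the shares were 0.269%, 0.213% and 0.217% for Lars2 and 0.0526%, 0.0338% and 0.0337% for CT010467.1. Group means of mitochondrial genes are given without Lars2.

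**Figure D1:**
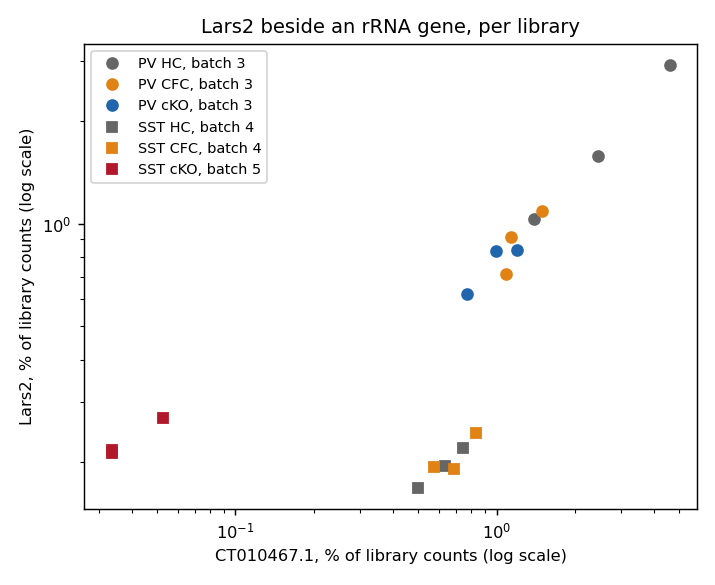
Each point is a library of batches 3 to 5, with the ribosomal RNA gene CT010467.1 on the x axis and Lars2 on the y axis, both as percent of all counts on log axes. Home cage PV replicates 2 and 3 have the highest Lars2 shares, 1.58% and 2.92%, and the batch 5 libraries lie apart with CT010467.1 under 0.06%.

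In PV libraries labelled Nr4a1-f/f, most of the cytosolic set had levels above those of home cage libraries. Depth differed with group in batch 3. Home cage libraries held 10096035 to 20353741 counts, labelled libraries 21148427 to 27282912 and CFC libraries 22346957 to 23558079. The part of depth in the differences from home cage was not tested. Of the 20 cytosolic genes, 18 had a positive log2 difference, with a median of 0.59, against a median of 0.04 over all 15150 genes tested, of which 53.2% were positive. Vars and Mars rose at an adjusted p under 0.05, 2 of 20, where 0.139% of all genes were called in either direction (0.099% higher, 0.0396% lower). A further 11 cytosolic genes were higher at an unadjusted p under 0.05, which 8.77% of all genes were, and none was lower. Of the 16 mitochondrial genes 0 were called by edgeR, 2 were higher and 1 lower at an unadjusted p under 0.05, and 11 were positive with a median of 0.26 (0.30 without Lars2).

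Vars codes for the valine enzyme and lies at chr17:35000987-35016322 on the plus strand of GRCm38. It was at 26.4, 26.9 and 27.1 CPM in home cage libraries and at 66.8, 49.4 and 55.9 CPM in libraries labelled Nr4a1-f/f. The groups do not overlap, and the home cage values are nearly equal. The log2 difference was 1.10 ± 0.16 (SE; adjusted p = 0.0202, edgeR). Mars, the methionine enzyme at chr10:127296221-127311786 on the minus strand, was at 55.4, 50.9 and 34.6 CPM in home cage libraries and at 100, 101 and 98.3 CPM in those labelled Nr4a1-f/f. Again every labelled library was above every home cage library, by 1.08 ± 0.16 on the log2 scale (adjusted p = 0.0231).

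Cars and Yars, for cysteine and tyrosine, fell just outside the threshold. Cars (chr7:143557230-143600090, minus strand) was at 39.3, 34.4 and 15.6 CPM in home cage libraries and at 97.7, 86.4 and 75.9 CPM in those labelled Nr4a1-f/f. It had the widest difference of the cytosolic set, 1.53 ± 0.26 (SE; adjusted p = 0.0534, edgeR), and its home cage replicate 3 was low. Yars (chr4:129189760-129219607, plus strand) was at 253, 244 and 214 CPM and at 381, 356 and 392 CPM, a difference of 0.67 ± 0.12 with the same adjusted p of 0.0534. Nars was at 542, 523 and 506 CPM in home cage libraries and at 781, 802 and 701 CPM in libraries labelled Nr4a1-f/f. That difference, 0.54 ± 0.11, did not pass either (adjusted p = 0.0904), although the groups stand well apart.

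Gars, Sars, Aars and Eprs had positive differences that did not pass. Gars was at 515, 493 and 284 CPM and at 742, 695 and 736 CPM, and Sars at 488, 496 and 346 CPM and at 703, 684 and 637 CPM. In both, home cage replicate 3 was the lowest library and the groups did not overlap. Gars differed by 0.75 ± 0.18 (adjusted p = 0.132) and Sars by 0.61 ± 0.14 (adjusted p = 0.128). Aars was at 397, 333 and 254 CPM against 645, 465 and 465 CPM (0.68 ± 0.18, adjusted p = 0.143), with 23.1% of its exon bases shared with other genes. Eprs was at 77.5, 73.9 and 67.9 CPM against 107, 114 and 119 CPM (0.63 ± 0.13, adjusted p = 0.0904).

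Some cytosolic genes stayed close to their home cage level. Farsb, the beta subunit of the phenylalanine enzyme, was at 181, 191 and 157 CPM in home cage libraries and at 191, 177 and 162 CPM in those labelled Nr4a1-f/f. These values overlap fully, with a log2 difference of 0.00 ± 0.12 (adjusted p = 0.997). Hars was at 241, 253 and 194 CPM and at 192, 209 and 208 CPM (-0.18 ± 0.14, adjusted p = 0.506). Kars was at 140, 144 and 94.8 CPM and at 150, 151 and 153 CPM (0.26 ± 0.16, adjusted p = 0.402). The Kars groups did not overlap, though 2 of the 3 home cage libraries were close to the labelled ones.

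**Figure D2:**
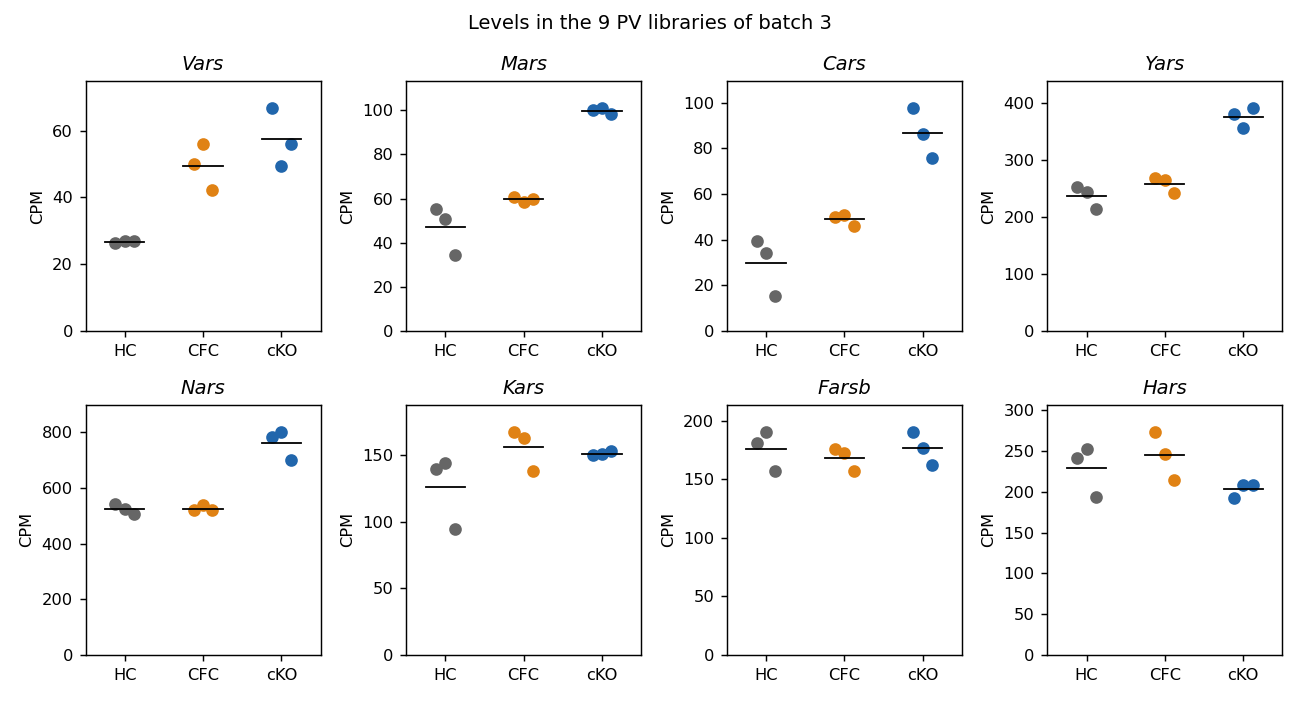
CPM of Vars, Mars, Cars, Yars, Nars, Kars, Farsb and Hars in the 9 PV libraries of batch 3, with points for libraries, a line for the group mean, and the groups home cage (HC), conditioned (CFC) and labelled Nr4a1-f/f (cKO). Mars is at 98.3 to 101 in the 3 libraries labelled Nr4a1-f/f and under 61 in the other 6, whereas Farsb and Hars overlap between home cage and labelled libraries.

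The 12 ATF4-responsive genes (Aars, Cars, Eprs, Gars, Iars, Lars, Mars, Nars, Sars, Tars, Wars and Yars) were all positive in libraries labelled Nr4a1-f/f, from 0.54 to 1.53 with a median of 0.65. All 12 had an unadjusted p under 0.05 and 1 was called. Their mean log2(CPM + 1) was 7.16, 7.05 and 6.63 in home cage libraries and 7.86, 7.72 and 7.64 in those labelled Nr4a1-f/f, with no overlap. Because the list was chosen with earlier results of these data known, its contrast with the other cytosolic genes is no independent test. The 8 other cytosolic genes had a median of 0.22, with 6 positive and 1 called (Vars). Their mean log2 levels were 6.39, 6.37 and 6.12 against 6.63, 6.51 and 6.46. The mitochondrial mean without Lars2 was 4.38, 4.26 and 3.85 in home cage and 4.5, 4.41 and 4.34 in labelled libraries, which overlap. The gap between the cytosolic and the mitochondrial mean was 2.47, 2.52 and 2.58 in home cage libraries and 2.87, 2.82 and 2.83 in those labelled Nr4a1-f/f.

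Counted by library, 14 of 20 cytosolic genes lay higher in every library labelled Nr4a1-f/f than in every home cage library and 0 lay lower in all, where 9.37% of all genes were higher in this way and 9.02% lower. These were the 12 genes of the ATF4-responsive list with Vars and Kars. Of the mitochondrial genes, Iars2 and Mars2 were higher without overlap, and Lars2 was lower. Iars2, at 39, 31.3 and 18.4 CPM against 71.1, 41.5 and 41.8 CPM, shares 37.2% of its exon bases with other genes. Without home cage replicate 3, which has the lowest total in batch 3, 15 cytosolic genes were higher and 2 lower, against 13.3% and 12.7% of all genes, an alternative chosen after seeing the data.

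The genes were also split by fold of the catalytic domain. Eprs, which joins the glutamate and the proline enzyme, was counted in class I only, here and below. The 10 class I genes had a median of 0.65, all positive and 2 called. The 10 class II genes had a median of 0.45, with 8 positive and 0 called by edgeR (5 at an unadjusted p under 0.05). The 8 enzymes of the multi-synthetase complex were all positive (median 0.46, Mars called). Its 3 scaffold proteins had a median of -0.28, with Aimp1 at -0.28, Aimp2 at 0.00 and Eef1e1 at -0.30, and none called or under an unadjusted p of 0.05. The 6 cytosolic elongation factors had a median of -0.17 with none called. The 77 mitochondrial ribosomal proteins had a median of -0.34, 68 negative, with 31 lower at an unadjusted p under 0.05 and none called.

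Other genes known as ATF4 regulators and effectors were also called in these libraries. Of 22 tested, 10 rose and 0 fell, with a median of 1.32 and 20 positive. Phgdh and Psat1, enzymes of serine synthesis, rose by 3.00 ± 0.28 (adjusted p = 0.00123) and 2.00 ± 0.17 (adjusted p = 0.00077). Asns, the asparagine synthetase, rose by 1.04 (adjusted p = 0.0055) and Slc7a5, an amino acid transporter, by 1.39 (adjusted p = 0.0162). Atf4 itself differed by 0.88 ± 0.19 and did not pass (adjusted p = 0.116). Oligodendrocyte markers moved with the same contrast: 9 of 10 were positive, with a median of 1.06, none was called and 6 were higher at an unadjusted p under 0.05. Their mean log2 level was 3.24, 3.75 and 3.78 in home cage and 4.30, 3.95 and 4.96 in labelled libraries. Vascular markers had a median of 0.70, with mean log2 levels of 3.08, 2.78 and 2.98 against 2.98, 1.73 and 4.17. Of these 10 markers 7 were positive and none was called, with 3 higher and 1 lower at an unadjusted p under 0.05. Pvalb ranged from 156 to 1350 CPM over the 3 labelled libraries. PV interneuron markers were positive in 4 of 5 cases (median 0.31, none called, 2 higher and 1 lower at an unadjusted p under 0.05). Their mean log2 levels were 7.99, 7.97 and 7.93 in home cage and 8.70, 8.74 and 7.89 in labelled libraries. The part of other cells and of PV marker levels in the synthetase differences was not tested.

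The 2 calls depended on which libraries entered. With DESeq2, 13 of the 36 genes were called (669 of all genes), with limma voom 4, and with only the 2 compared groups in the fit 0. Leaving out a single library gave 15 called members (and 1224 of all genes) without home cage replicate 1. It gave 0 without home cage replicate 2 or labelled replicate 1 or 3, and 1 (Vars) without labelled replicate 2. Without home cage replicate 3, Cars was called (1.23, adjusted p = 0.0114, edgeR) and the mitochondrial median was 0.06. Over all 6 libraries left out, the log2 difference of Vars stayed between 0.98 and 1.20 and that of Mars between 0.91 and 1.22.

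Fear conditioning was set against the same home cage PV libraries. Each of these held fewer counts than every CFC library, with the totals given above, and the part of depth was not tested. Of the 20 cytosolic genes 19 were positive with a median of 0.30. Of the 16 mitochondrial genes 11 were positive with a median of 0.33, against 0.02 over all genes. With each library left out in turn, the medians ranged from 0.14 to 0.43 (cytosolic) and from 0.13 to 0.49 (mitochondrial). The mitochondrial median was 0.13 without home cage replicate 3. The cytosolic mean log2 level of that library was 6.43, against 6.85 and 6.78 in home cage replicates 1 and 2. edgeR called 0 of the 36 genes and 0% of all 15150. At an unadjusted p under 0.05, 6 cytosolic genes were higher, and 4 mitochondrial genes were higher and 1 lower, against 9.62% of all genes higher and 9.08% lower. DESeq2 called 5 of the 36 genes (745 of all) and limma voom 0 (1 of all). Without home cage replicate 1, edgeR called 9 of the 36 and 1481 of all genes.

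The widest cytosolic difference was in Vars, at 50, 56 and 42.1 CPM after CFC against 26.4, 26.9 and 27.1 CPM in home cage (0.88 ± 0.16, adjusted p = 0.186, edgeR). The groups were well apart, yet the adjusted p missed the threshold. Aars (0.57 ± 0.18), Iars (0.79 ± 0.26) and Eprs (0.47 ± 0.13) had the same adjusted p of 0.186. Iars was at 84.8, 105 and 82.9 CPM after CFC and at 76.1, 47.1 and 33.6 CPM in home cage. Nars, in contrast with its level in libraries labelled Nr4a1-f/f, was at 519, 538 and 520 CPM after CFC and differed from home cage by 0.00 ± 0.11. Yars was at 268, 266 and 242 CPM (0.13 ± 0.12), Mars at 60.8, 58.6 and 59.7 CPM (0.34 ± 0.16), Gars at 547, 531 and 515 CPM (0.30 ± 0.18, adjusted p = 0.389) and Kars at 168, 163 and 138 CPM (0.30 ± 0.16, adjusted p = 0.32).

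Among the mitochondrial enzymes, Iars2 was at 54.1, 60.6 and 59.5 CPM after CFC against 39, 31.3 and 18.4 CPM (0.96 ± 0.27, adjusted p = 0.186). Vars2 differed by 0.72 (adjusted p = 0.19). Lars2 was at 11000, 9120 and 6810 CPM after CFC and at 10200, 16600 and 32200 CPM in home cage (-1.13 ± 0.33, adjusted p = 0.186), with the ribosomal RNA shares given above. By library, 10 cytosolic genes were higher without overlap and 0 lower, against 13.6% and 11.4% of all genes, and 3 mitochondrial genes (Iars2, Ears2 and Vars2) were higher. The 12 genes of the ATF4-responsive list were all positive in this comparison too, with a median of 0.35 and none called. Of these, 5 were higher at an unadjusted p under 0.05, against 9.62% of all genes. The 8 other cytosolic genes had a median of 0.15, with 7 positive and 1 higher at that p. The ATF4 regulators and effectors had a median of -0.08, with none of 22 called by edgeR, 1 higher and 2 lower at an unadjusted p under 0.05.

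**Figure D3:**
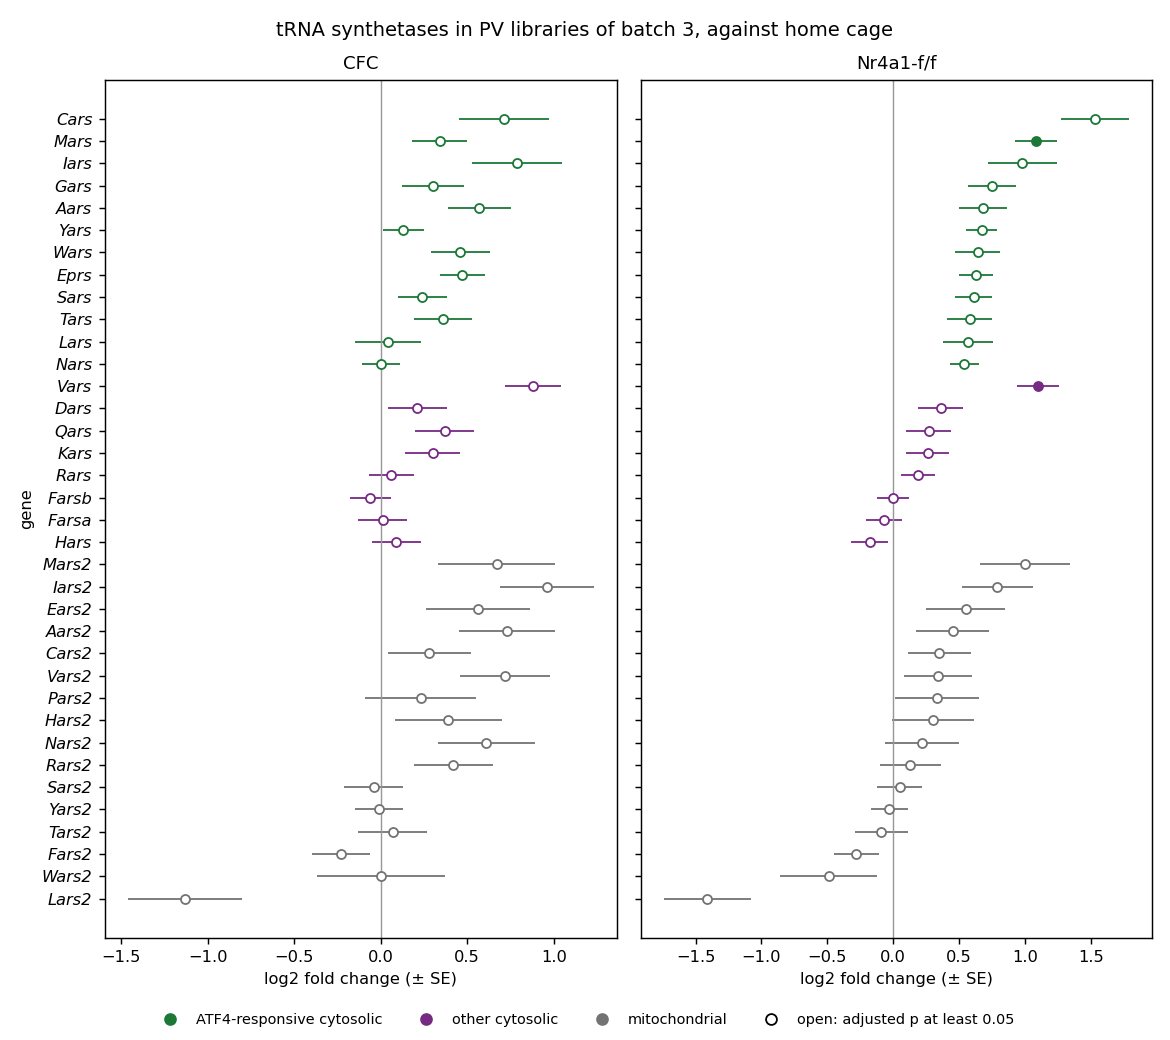
Log2 differences with SE of all 36 genes in PV libraries of batch 3, for CFC and for libraries labelled Nr4a1-f/f (cKO), each against the same 3 home cage libraries; filled points have an adjusted p under 0.05. Vars and Mars are the only filled points, both in libraries labelled Nr4a1-f/f, and Lars2 is lowest in both.

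Both comparisons share the home cage libraries, so the conditioned libraries were also set directly against those labelled Nr4a1-f/f. These groups differ in both conditioning and genotype, which cannot be told apart in this comparison. Here 16 of 20 cytosolic genes were negative (lower in CFC libraries than in labelled ones) with a median of -0.19. Of the 16 mitochondrial genes, 12 were positive with a median of 0.12. None of the 36 was called by edgeR, where 0.132% of all genes were (0.033% higher, 0.099% lower). At an unadjusted p under 0.05, 7 cytosolic genes were lower (3.12% of all genes were) and 0 mitochondrial genes moved. DESeq2 called 3 of the 36 and limma voom 0.

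The 7 were Nars (-0.53 ± 0.11, adjusted p = 0.13), Yars (-0.54 ± 0.12, adjusted p = 0.19), Mars (-0.74 ± 0.16, adjusted p = 0.217), Cars, Lars, Sars and Gars (adjusted p = 0.649 to 0.854). All belong to the ATF4-responsive list, whose 12 genes were all negative with a median of -0.41. That list was chosen with earlier results known, and the same labelled libraries enter here again, so this is no independent check of it. The 8 other cytosolic genes had a median of -0.01, with Vars at -0.22 ± 0.16 and Kars at 0.05 ± 0.16. Cars was at 50, 50.9 and 46.1 CPM after CFC and at 97.7, 86.4 and 75.9 CPM in libraries labelled Nr4a1-f/f. By library, 8 cytosolic genes were lower without overlap and 1 (Hars) higher, against 6.77% and 7.36% of all genes. Of the 16 mitochondrial genes, 0 were lower and 2 (Vars2 and Wars2) higher in this way.

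ATF4 regulators and effectors were lower after CFC than in libraries labelled Nr4a1-f/f in 21 of 22 cases, with 10 called lower and a median of -1.26. Phgdh differed by -2.69 and Asns by -1.06. Oligodendrocyte markers were all lower as well (10 of 10, median -0.67, none called, 3 at an unadjusted p under 0.05), as were 7 of 10 vascular markers (median -1.23, none called, 5 at that p), and their part was not tested.

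In SST neurons the only libraries labelled Nr4a1-f/f are in batch 5 and the home cage libraries in batch 4, so batch and genotype cannot be told apart, and 8.1% of all genes were called (3.51% higher, 4.59% lower). In a joint fit, 5 of 20 cytosolic genes were called and 0 of 16 mitochondrial by edgeR. At an unadjusted p under 0.05, 1 mitochondrial gene was higher and 3 lower, against 10.9% and 10.8% of all genes. DESeq2 called 10 of the 36 (2126 of all genes) and limma voom 6 (1403 of all). Nars was at 731, 884 and 868 CPM in libraries labelled Nr4a1-f/f and at 454, 429 and 466 CPM in home cage, each scaled within its own table. Every labelled library was above every home cage library, by 0.83 ± 0.09 on the log2 scale (adjusted p = 0.00092, edgeR).

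Cars rose by 0.70 ± 0.15 (adjusted p = 0.0184) and Mars by 0.53 ± 0.14 (adjusted p = 0.0413). Mars was at 89.1, 91.1 and 91.7 CPM against 46.4, 67 and 68.5 CPM. Hars was at 282, 243 and 305 CPM in home cage and 192, 226 and 226 CPM in labelled libraries and fell, with a log2 difference of -0.41 ± 0.11 (adjusted p = 0.0425), and Qars, the glutamine enzyme, fell as well (-0.44 ± 0.12, adjusted p = 0.0485). Vars, called in PV, differed by -0.20 ± 0.16. Gars (0.33 ± 0.11, adjusted p = 0.0905) and Kars (-0.29 ± 0.09, adjusted p = 0.0664) lay on either side of 0 and did not pass. The call of Nars held without any single library (adjusted p up to 0.00732). Without labelled replicate 2 or 3 it was the single call, and Hars and Qars each lost theirs without home cage replicate 1 or 3 and without any labelled replicate. Mars also lost its call without home cage replicate 2 or labelled replicate 1, and Qars without home cage replicate 2.

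The ATF4-responsive genes were all positive in this comparison (12 of 12, median 0.35, 3 called), and the 8 other cytosolic genes had a median of -0.21 with 2 called lower. Mitochondrial genes had a median of -0.01. ATF4 regulators and effectors had a median of 0.64 with 6 of 22 called higher and 0 lower, among them Atf4 (0.76) and Asns (0.71). Markers of other cells were mostly negative: oligodendrocyte (median -0.71, 4 of 10 called lower), excitatory neuron (-0.55, 3 of 10), microglia (-1.09, 1 of 10) and astrocyte (-0.73, 1 of 10). Vascular markers had a median of 0.33 with none called. The part of these cells was not tested.

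**Figure D4:**
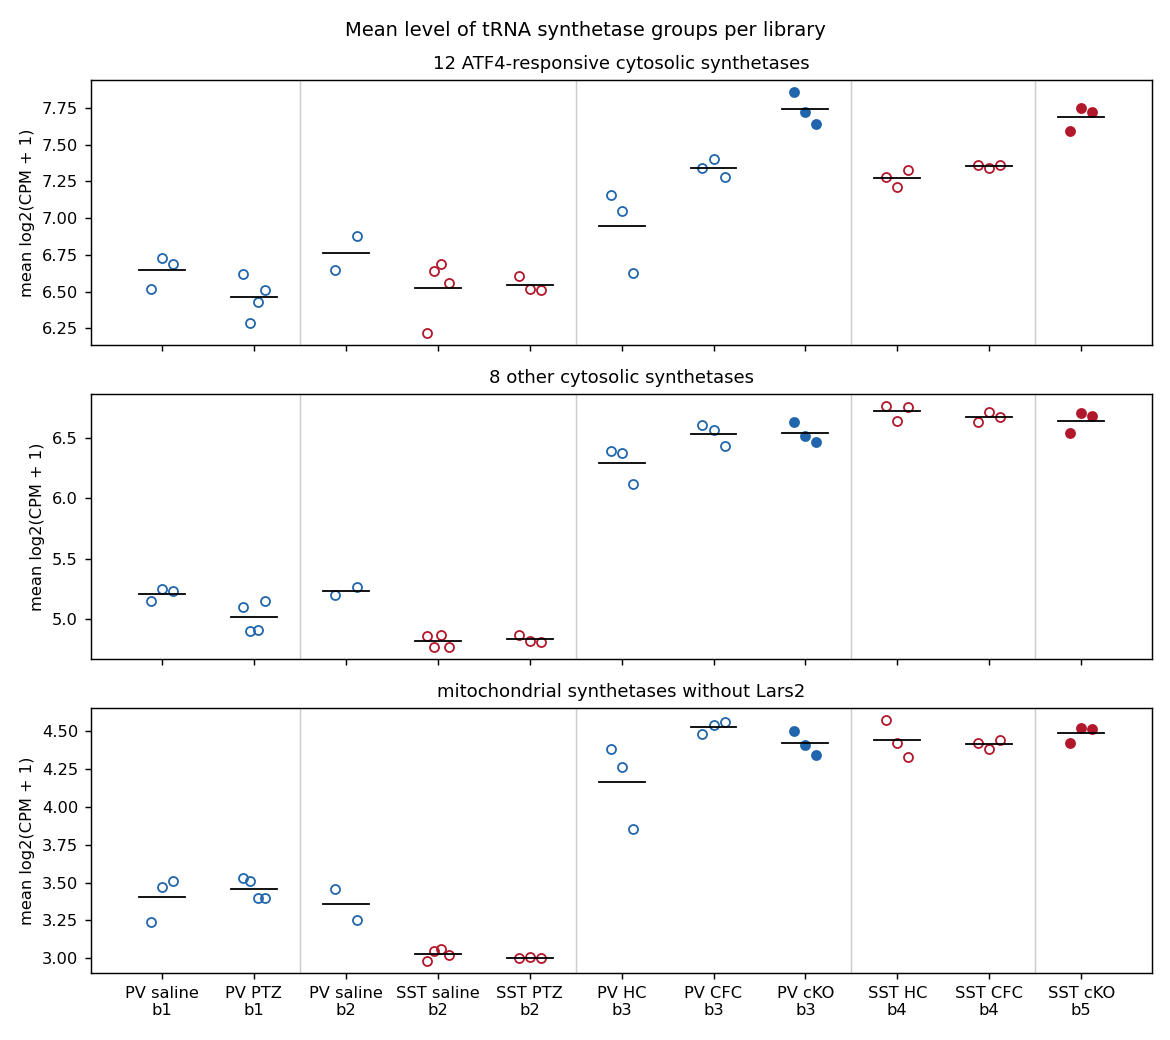
Mean log2(CPM + 1) per library of the 12 ATF4-responsive, the 8 other cytosolic and the mitochondrial synthetases without Lars2, in the 11 groups; a line marks the group mean, filled points are libraries labelled Nr4a1-f/f, and each batch was normalised separately. In the first panel the PV libraries labelled Nr4a1-f/f lie at 7.64 to 7.86, above the other PV libraries of batch 3 (6.63 to 7.40).

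Fear conditioning in SST neurons gave differences near 0 for most of these genes. The median was 0.07 for cytosolic and -0.01 for mitochondrial genes, against 0.00 for all genes. edgeR, DESeq2 and limma voom each called 0 of 36, and edgeR called 0.0411% of all genes (0.0342% higher, 0.00684% lower). Vars was the single member with an unadjusted p under 0.05, at 49.8, 43.2 and 62.3 CPM after CFC and 65.9, 58.7 and 80.9 CPM in home cage (-0.40 ± 0.18, adjusted p = 0.896). Its groups overlapped, and the sign was opposite to that in PV. Iars (0.35 ± 0.16, adjusted p = 0.913), Gars (0.18 ± 0.09, adjusted p = 0.928) and Kars (0.05 ± 0.09) did not pass. By library, 0 cytosolic genes were without overlap and 1 mitochondrial gene, Hars2, was higher (4.8% of all genes were, and 5.8% were lower). Hars2 was at 33.3, 33.8 and 36.2 CPM after CFC and 23.2, 29.7 and 31.4 CPM in home cage. Vascular markers were lower after CFC (10 of 10, median -2.99, 1 called), with mean log2 levels of 2.13, 2.40 and 1.86 against 3.33, 5.30 and 4.60.

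The difference between the SST and the PV response to CFC was tested in a joint fit of batches 3 and 4. None of the 36 genes was called by edgeR or limma voom, and 0% of 16081 genes were called by edgeR. DESeq2 called 1 of the 36 and 327 of all genes, and without PV home cage replicate 1 edgeR called 4 and 881. At an unadjusted p under 0.05, 3 cytosolic genes were lower in this contrast, and 1 mitochondrial gene was higher and 2 lower, against 8.76% of all genes higher and 6.49% lower. Vars had the smallest p, with a difference of -1.23 ± 0.24 (unadjusted p = 0.000118, adjusted p = 0.21). Gars differed by -0.06 ± 0.23.

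PTZ in PV neurons gave small negative differences for most cytosolic genes. Of 20, 16 were negative with a median of -0.21, and the 16 mitochondrial genes had a median of 0.06, against -0.01 for all genes. edgeR, DESeq2 and limma voom called 0 of the 36, and edgeR called 0.0294% of all genes. Sars, Aars and Nars were lower and Nars2 higher at an unadjusted p under 0.05, where 4.62% of all genes were lower and 9.17% higher. Nars was at 304, 201, 286 and 302 CPM after PTZ and at 338, 411 and 387 CPM after saline (-0.47 ± 0.20, adjusted p = 0.351). Nars2, its mitochondrial counterpart, was at 15.7, 14.9, 17.6 and 13 CPM after PTZ and at 7.6, 8.46 and 10.9 CPM after saline (0.76 ± 0.23, adjusted p = 0.297). The groups did not overlap in either gene, and the signs were opposite.

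Sars (-0.52 ± 0.19, adjusted p = 0.324), Aars (-0.50 ± 0.19, adjusted p = 0.326), Gars (-0.44 ± 0.23, adjusted p = 0.387) and Kars (-0.21 ± 0.20) did not pass. Without overlap, 3 cytosolic genes (Aars, Farsb and Nars) were lower and 1 mitochondrial gene (Nars2) higher, against 6.24% and 7.56% of all genes. Microglial markers were higher after PTZ in 10 of 10 cases (median 1.69, none called), with mean log2 levels of 2.25, 3.28, 2.86 and 4.98 against 3.07, 1.96 and 2.04. Vascular (median 0.90), oligodendrocyte (0.64) and excitatory neuron markers (0.61) were also positive in 10 of 10 cases each, and astrocyte markers in 9 of 10 (0.38), with none called. PV interneuron markers were negative in 4 of 5 cases (median -0.75, none called, 3 lower and 1 higher at an unadjusted p under 0.05). The part of these cells was not tested.

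After PTZ in SST neurons the cytosolic median was 0.00 and the mitochondrial -0.11, against -0.01 for all genes. No member was called by edgeR, DESeq2 or limma voom, and none had an unadjusted p under 0.05, where 2.16% of all genes were higher and 2.18% lower. edgeR called 0.144% of all genes. Rars, the arginine enzyme, was at 42, 37 and 38.3 CPM after PTZ and at 34.3, 34.3, 32.6 and 35.4 CPM after saline (0.19 ± 0.12, adjusted p at least 0.989 for all 35). It was the single cytosolic gene without overlap, against 4.57% of all genes higher in this way, and Rars2 was the single mitochondrial gene, lower, as were 5.84% of all genes. Kars (-0.05) and Gars (0.06) were close to 0. The difference between the SST and the PV response to PTZ was called for 0 of 35 genes by edgeR, DESeq2 and limma voom (0% of 11743 genes by edgeR). At an unadjusted p under 0.05, Rars was higher (0.57 ± 0.26) and Nars2 lower (-0.62 ± 0.27), both at an adjusted p of 0.82.

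Between the 2 neuron classes after saline, many synthetases differed, as did most genes. Depth differed with class: the 2 PV libraries held 6161764 and 4933110 counts, and the 4 SST libraries 13763931 to 18367658. The part of depth in these differences was not tested. In batch 2, 17 of 35 members were called, where 53.1% of all genes were (26% higher in SST, 27.1% lower), so the share of members called is near that of all genes. The direction was uneven: 9 cytosolic genes were lower in SST and 1 higher, and 6 mitochondrial genes were lower and 1 higher. At an unadjusted p under 0.05, 5 members were higher and 17 lower, against 29% and 29.8% of all genes. The medians were -0.55 for cytosolic and -0.52 for mitochondrial genes, against 0.01 for all genes.

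Hars had the smallest adjusted p. It was at 122 and 146 CPM in the 2 PV libraries and at 64.8, 46.8, 49.9 and 47.1 CPM in the 4 SST libraries, lower by 1.36 on the log2 scale (-1.36 ± 0.15, adjusted p = 2.05e-05, edgeR). Kars was at 61.4 and 92.8 CPM against 39.4, 29.1, 39.6 and 33.5 CPM (-1.12 ± 0.19, adjusted p = 0.000433). Gars was at 216 and 264 CPM against 134, 163, 163 and 142 CPM (-0.67 ± 0.12, adjusted p = 0.000794). In all 3 genes the classes did not overlap. Nars (-0.96 ± 0.18), Sars (-0.85 ± 0.17), Aars (-0.79 ± 0.16), Yars (-0.68 ± 0.17), Rars (-0.60 ± 0.14) and Wars (-0.50 ± 0.12) were also lower in SST, at adjusted p from 0.000964 to 0.0049.

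Dars, the aspartate enzyme, went the other way, at 29.8 and 26.9 CPM in PV and 48.4, 54.5, 42.4 and 45.1 CPM in SST (0.74 ± 0.15, adjusted p = 0.0017). Mars2, the mitochondrial methionine enzyme, was also higher in SST, at 5.44 and 3.85 CPM against 8.41, 8.82, 11.5 and 10.2 CPM (1.05 ± 0.27, adjusted p = 0.00679). Lower in SST were Lars2 (-1.89 ± 0.40, adjusted p = 0.00196), Tars2 (-1.76 ± 0.38), Fars2 (-1.43 ± 0.32), Sars2 (-1.28 ± 0.39), Aars2 (-1.22 ± 0.29) and Iars2 (-0.45 ± 0.16, adjusted p = 0.0352). Tars2 was at 6.96 and 15 CPM in PV and 4.05, 2.55, 3.40 and 2.82 CPM in SST. Several of these calls rest on few counts in the PV libraries. Mars2 had 36 and 18 counts there, Sars2 37 and 49, Tars2 46 and 70, and Fars2 47 and 45. Iars2 had 240 and 233. The 2 PV libraries differ widely in several of these genes: Lars2 was at 12.6 and 54.7 CPM in them and at 8.59, 8.32, 10.5 and 8.46 CPM in SST.

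**Figure D5:**
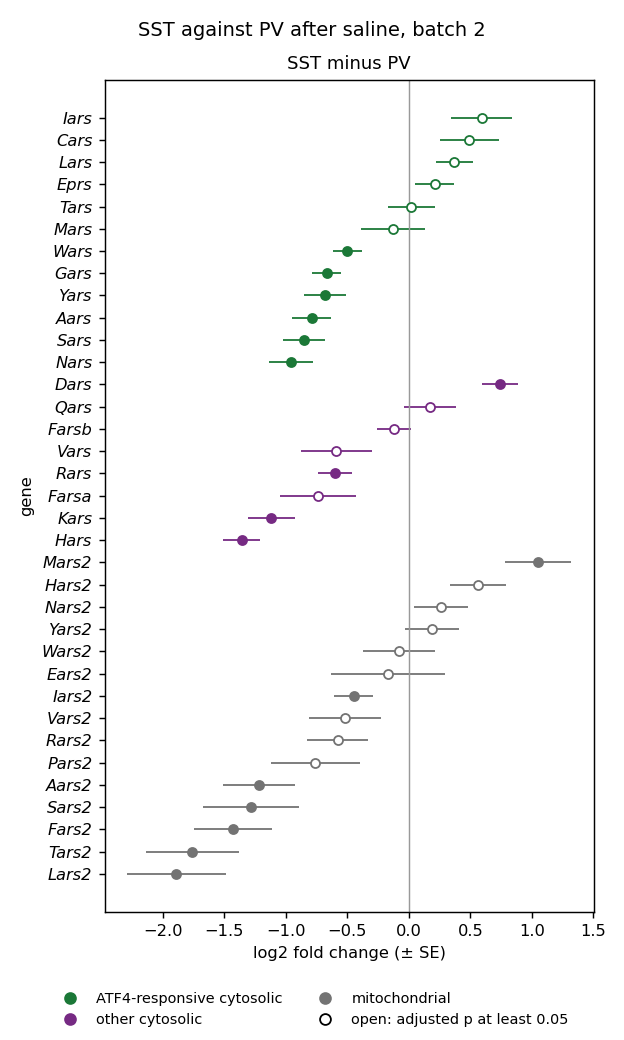
Log2 difference with SE, SST minus PV after saline in batch 2, for 35 synthetase genes grouped as ATF4-responsive cytosolic, other cytosolic and mitochondrial; filled points have an adjusted p under 0.05. Filled points lie left of 0 except Dars and Mars2.

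By class, the 10 class I genes had a median of 0.02 with 3 called lower, and the 10 class II genes -0.76 with 6 called lower and 1 higher. By library, 9 cytosolic genes were lower and 2 (Lars and Dars) higher without overlap, against 28.5% and 30.7% of all genes. Of the 15 mitochondrial genes tested, 7 were lower and 3 (Nars2, Hars2 and Mars2) higher in this way. Other translation genes were called lower in SST too. Of 77 mitochondrial ribosomal proteins 58 fell and 1 rose (median -1.36), of 6 elongation factors 5 fell (median -1.16), and of 11 mitochondrial translation factors 6 fell, with Tufm, the mitochondrial elongation factor Tu, at -2.41. Gatb, a subunit of the mitochondrial glutamine amidating enzyme, was at -2.18 and the scaffold Aimp2 at -1.34. With only 2 PV libraries, leaving out either leaves a lone PV library whose spread is taken from the other groups. Without PV replicate 2, Lars2 (-0.48, adjusted p = 0.119), Sars2 (-0.77, adjusted p = 0.148) and Iars2 (-0.20, adjusted p = 0.34) lost their calls, and without PV replicate 1 Aars2 did (-0.59, adjusted p = 0.0922). Iars2 also lost it without SST replicate 1 or 4, with limma voom (adjusted p = 0.0642), with a replicate block (adjusted p = 0.0969) and with only the compared groups in the fit (adjusted p = 0.0901). Over all 6 libraries left out in turn, Hars ranged from -1.50 to -1.21 and Kars from -1.40 to -0.79.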

How the data were processed

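RNA-seq counts of 34 RiboTag libraries were analysed in 5 tables. The authors deposited gene counts for batches 2 to 5 and estimated counts for batch 1, where 11.3% of values were not whole and all were rounded. Per the submitters' processing notes, cutadapt 1.18, STAR 2.5.2a, HTSeq 0.11.0 and DESeq2 were used with mm10 and GRCm39. The notes give no build per batch, and whether counting used the strand is not stated in them, so genes that share exons cannot be told apart.

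Each table was fitted whole with edgeR 4.0.16 in R 4.3.3 (quasi-likelihood F test, robust, TMM, filterByExpr, Benjamini-Hochberg over all genes), which kept 13598, 11784, 15150, 14614 and 14009 genes in batches 1 to 5. Differences of responses were fitted on the genes common to 2 tables. CPM follow TMM scaling, and mean levels are log2(CPM + 1). Alternatives were RLE scaling, no filter, DESeq2 1.42.0, limma 3.58.1 voom, only the groups compared, a replicate block and leaving out each library. Positions are from GENCODE M21 and per-length levels use the length of the principal transcript. Code was tested on simulated data. No replicate pair held identical values (0 of 37).

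Members and gene lists were chosen with earlier results of these data known. Named genes were the called members, otherwise the 4 cytosolic and 2 mitochondrial genes with the smallest p, Kars and Gars throughout, and from each other list up to 3 called genes. Others were named after their values were seen. Astrocyte and excitatory neuron markers had medians of 0.26 and 0.06 in PV libraries labelled Nr4a1-f/f, and none was called. Of 10 markers each, 8 and 6 were positive. At an unadjusted p under 0.05, 3 astrocyte markers and 1 excitatory neuron marker were higher and 0 lower, against 8.77% of all genes higher.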

Additional observations from a re-analysis of the deposited data

Results flagged for a closer look

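In groups of 4 libraries, 9 of 71 sets of a gene and a group held a library far from the other 3, where chance gives about 1 in 20 of independent sets. These sets are not independent, because the genes were measured in the same libraries and several flags fall on the same library. The 2 shares can therefore not be compared. After PTZ in PV neurons, replicate 2 was low in Dars at 26.5 CPM (others 37.7 to 40.1) and high in Cars2 at 8.31 CPM (others 4.24 to 4.74) and Hars2 at 19.1 CPM (others 13.6 to 14.2). Replicate 1 of that group was high in Yars2 at 20.4 CPM (others 11.4 to 12.8).

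After saline in SST neurons, replicate 1 was low in Nars at 280 CPM (others 362 to 375), Tars at 20.1 CPM (others 27.3 to 28) and Yars at 60 CPM (others 86.7 to 89.3), and high in Wars2 at 6.35 CPM (others 4.44 to 4.74). Replicate 3 was high in Lars2 at 10.5 CPM (others 8.32 to 8.59).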

How the results depend on the processing

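The count of called members moved with the tool and the filter. In PV libraries labelled Nr4a1-f/f it was 2, and 14 with no filter, 13 with DESeq2, 4 with limma voom and 0 with only the groups compared. For PV CFC it was 0, and 7 with no filter and 5 with DESeq2. For CFC against libraries labelled Nr4a1-f/f it was 0, and 2 with no filter, 3 with DESeq2 and 2 with only the groups compared. For the difference of CFC responses it was 0, and 2 with no filter and 1 with DESeq2. For SST libraries labelled Nr4a1-f/f it was 5, and 10 with DESeq2 and 3 with only the groups compared. Over all genes, PV libraries labelled Nr4a1-f/f gave 21 calls, and 669 with DESeq2 and 1072 with no filter; PV CFC gave 0, and 745 and 1032; CFC against labelled libraries gave 20, and 87 and 208; PV PTZ gave 4 and DESeq2 215; SST CFC gave 6 and DESeq2 102, with 11 for no filter; SST PTZ gave 17 and DESeq2 38. The cause was not tested.

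Leaving out each library in turn gave 0 to 15 called members in PV libraries labelled Nr4a1-f/f. The count was 15 without home cage replicate 1 and 0 without home cage replicate 2 or labelled replicate 1 or 3. Without labelled replicate 2 it was 1, Vars. Without home cage replicate 3, Cars was called. The range was 0 to 9 for PV CFC (9 without home cage replicate 1) and 0 to 4 for the difference of CFC responses (4 without PV home cage replicate 1). It was 1 to 4 for SST libraries labelled Nr4a1-f/f (1 without labelled replicate 2 or 3). Over all genes, the same fits called 7 to 1224 in PV libraries labelled Nr4a1-f/f and 0 to 1481 for PV CFC. They called 0 to 881 for the difference of CFC responses and 412 to 1292 in SST libraries labelled Nr4a1-f/f. For SST against PV no range of calls is given, because leaving out a PV library leaves a lone one. The range of called members was 0 to 0 for both PTZ comparisons, their difference, SST CFC, and CFC against labelled libraries. Cytosolic medians ranged from 0.51 to 0.68 in PV libraries labelled Nr4a1-f/f, 0.14 to 0.43 for PV CFC, -0.25 to -0.09 for CFC against labelled libraries, -0.28 to -0.14 for PV PTZ, 0.01 to 0.09 for SST CFC, -0.01 to 0.04 for SST PTZ, -0.57 to -0.38 for SST against PV, 0.14 to 0.30 for SST libraries labelled Nr4a1-f/f, and -0.25 to -0.08 and 0.11 to 0.22 for the differences of CFC and PTZ responses. Mitochondrial medians ranged, in the same order, from 0.06 to 0.33, 0.13 to 0.49, 0.04 to 0.15, -0.04 to 0.17, -0.11 to 0.08, -0.08 to 0.00, -0.69 to -0.19, -0.07 to 0.11, -0.42 to -0.19 and -0.10 to 0.02.

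Kars after PTZ in SST turned to 0.01 without SST saline replicate 3 and 0.02 without SST PTZ replicate 1. Gars in the difference of CFC responses turned to 0.17 without PV home cage replicate 3 and 0.03 without SST home cage replicate 1. Same-numbered replicates correlated at -0.23 to 0.35 over the comparisons, so the numbers were not taken as pairs. With a replicate block, called members were 3 in PV libraries labelled Nr4a1-f/f (Cars added, adjusted p = 0.0133, edgeR), with 27 of all genes called. For SST against PV 16 members and 4947 of all genes were called. The block fits called 0 members in the other comparisons within or between batches 1 to 4 (SST libraries labelled Nr4a1-f/f had no block fit). The mitochondrial median for SST PTZ with the block was -0.06. Groups of 2 to 4 libraries limit all of these tests.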

Other observations

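The genes around the synthetases moved in their own ways. Mitochondrial ribosomal proteins, which make up the ribosome of the mitochondrial translation system, had negative medians in PV neurons after PTZ (-0.31, 71 of 77 negative, none called by edgeR, 1 lower at an unadjusted p under 0.05), after CFC (-0.43, 70 of 77 negative, 49 lower at an unadjusted p under 0.05, none called by edgeR) and in SST neurons after PTZ (-0.23, 71 of 77 negative, 5 lower at that p). After CFC in SST neurons the median was 0.05. The mitochondrial synthetases of the same PV CFC libraries had a median of 0.33, of the opposite sign. This synthetase median was 0.13 without home cage replicate 3. That library also had the highest mean log2 level of mitochondrial ribosomal proteins in its group, 6.71 against 6.31 and 6.60.

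Class II cytosolic synthetases were all negative after PTZ in PV neurons (10 of 10, median -0.33, none called by edgeR and 3 at an unadjusted p under 0.05), and class I genes had a median of -0.06. In SST neurons the class II median after PTZ was -0.03. In the difference of the PTZ responses, 10 of 10 class II genes were positive with a median of 0.23, and none was called or had an unadjusted p under 0.05. The same PV libraries enter this difference, so it is no independent check of the negative values in PV.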
